A study of Homo sapiens with 4 samples.

Results

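SNU-16 is an established human gastric carcinoma cell line that carries high-level amplifications of oncogenes. Cells of this line were implanted orthotopically, into the wall of the stomach of immunodeficient BALB/c nude mice, and lines were recovered from the tumour that grew in the stomach and from a metastasis in the ovary. After 7 days in culture the stomach-derived and the ovary-derived cells were implanted into the stomach again, and cells were recovered from a stomach tumour of the former and an ovarian metastasis of the latter. The comparison described here is of the second implantation round with the first: 2 arrays of round 2 (1 stomach line, 1 ovary line) against 2 arrays of round 1 (1 stomach line, 1 ovary line), which are all 4 arrays of the series.

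All groups share the parental line, the mouse strain and the implantation site, and no array of the unimplanted parental line was analysed here. RNA came from cell pellets, per the labels' protocols. Each combination of site and round is a single line on a single array, the lines of round 2 descend from the lines of round 1 of the same site, and how many animals stand behind a line is not stated in the labels. Differences therefore describe these 4 lines, and the spread within a round is the spread between a stomach and an ovary line. The free-text descriptions contradict the titles for round 2, giving the ovary for the stomach line and the stomach for the ovary line. Groups follow the titles and tissue labels, and swapping this pair would not alter the mean of the round, but would alter every difference within a site, the ranking of genes and which site shows the larger difference.

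Members were all genes represented by a probe set with 1 gene symbol, 18417 in all, of which 14547 had a mean signal above the minimum of 5.64 (log2), the 30th percentile of all rows. Below, a difference is round 2 minus round 1 on the log2 scale within a site, so that a difference of 1 is 2-fold. A gene is called non-overlapping where both round 2 arrays lay above, or both below, both round 1 arrays. The stomach pair and the ovary pair share no array.

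Repeated passage through an animal is a classical way to derive tumour cell lines that grow or spread more readily, and lines obtained in this way can differ from their parent in cell cycle, adhesion and signalling genes. Transcript levels in cultured carcinoma cells also follow growth rate, since ribosome production and mitosis are among the largest programmes of a dividing cell. The results below are ordered from the genes furthest apart, through signalling pathways, growth and cell surface programmes, to chromosomal neighbourhoods.

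Across all genes, the rounds differed in the same direction at both sites in 9269 genes and in opposite directions in 4600, and 678 had a difference of exactly 0 at a site. Higher in round 2 at both sites were 4214 genes (29% of the 14547 tested), and lower at both sites 5055 (34.7%). Both round 2 arrays lay above both round 1 arrays in 3231 genes (22.2%) and below them in 3900 (26.8%). Of these non-overlapping genes 45.3% lay above, and 56.4% lay above when the arrays were centred on their medians, so the balance of higher and lower genes follows the scaling. These shares are the background for every count of list members below. No gene was called by limma (0 of 14547, 0%, adjusted p under 0.05), with a smallest adjusted p of 0.149 and 2178 genes at an unadjusted p under 0.05.

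At least 2-fold higher at both sites were 10 genes (0.0687%) and at least 2-fold lower were 2 (0.0137%), while 1 gene was at least 2-fold apart in opposite directions. At 1.5-fold, 59 genes were higher at both sites (0.406%) and 19 lower (0.131%), against 14 in opposite directions. Of the 10 genes, EVI2B, ZFP42 and NXPE2 had a round 1 value under the signal minimum. EVI2B and ZFP42 lay above it only in the round 2 lines, and so entered the tested genes through the round where they were high. With the minimum at the 50th percentile of all rows, the count of genes at least 2-fold higher was 6. The ovary lines were further apart than the stomach lines: 102 genes were at least 2-fold higher and 28 lower in ovary, against 23 and 15 in stomach. The root mean square difference over the tested genes was 0.191 between the arrays of round 2 and 0.216 between those of round 1. Across rounds it was 0.231 within the stomach lineage and 0.269 within the ovary lineage, and 0.244 and 0.272 between lines of different sites. By Pearson's r over all rows, a correlation across probe sets, the order within rounds was the reverse, with 0.994 for round 1 and 0.993 for round 2, and pairs across rounds had 0.990 to 0.991.

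**Figure D1:**
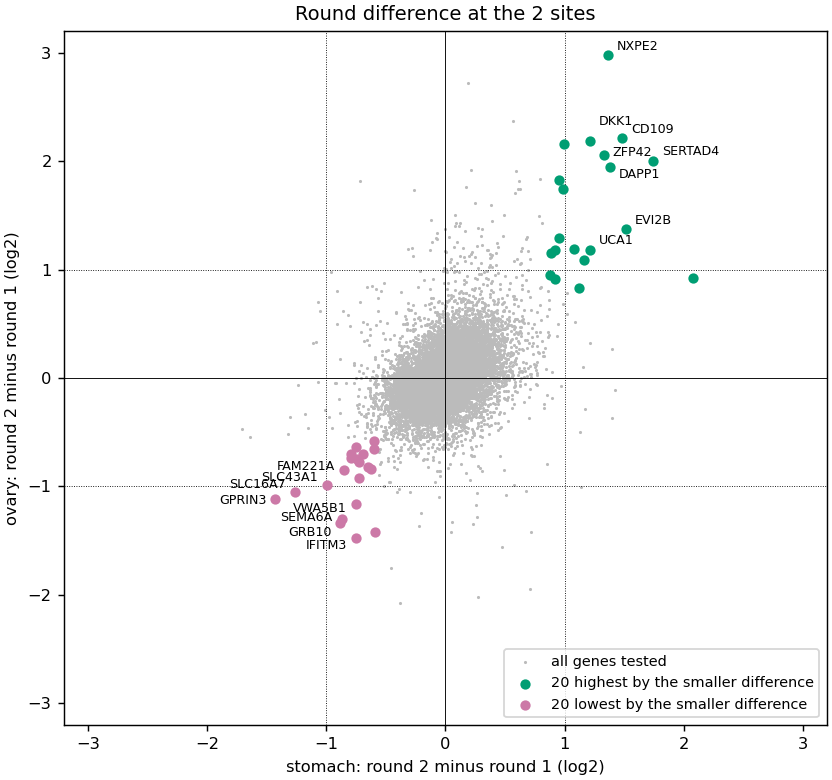
Round 2 minus round 1 (log2) in the stomach lines (x axis) and the ovary lines (y axis) for the 14547 tested genes, with dotted lines at 2-fold and the 8 most extreme genes of each direction named. The 20 highest and 20 lowest genes by the smaller of both differences are coloured, and 10 genes lie beyond 2-fold in the upper right against 2 in the lower left.

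Genes were ranked by the smaller in size of their differences at both sites, which picks them for the size of the difference, so their values are a description. Of the 20 highest and 20 lowest genes, 38 were non-overlapping. The last gene inside the higher group was ESAM (0.83) and the next one outside was H4C6 (0.81); on the lower side these were ABCC4 (-0.58) and LRFN4 (-0.56). The difference was larger in ovary than in stomach in 14 of the 20 highest and 13 of the 20 lowest genes. Adjusted p-values of limma ran from 0.149 to 0.316 in the higher group and from 0.287 to 0.427 in the lower group. No interaction of site and round was called (0 of 14547, with 194 at an unadjusted p under 0.05). With 1 array per site and round, the error of that fit holds the round and site differences. For genes picked for a large round difference it therefore cannot decide whether the sites differ.

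The genes whose sites matched most closely included a non-coding RNA and a glycosyltransferase. SERTAD4, which encodes a SERTA domain protein, stood at 7.28 and 7.34 in the stomach and ovary lines of round 1, and at 9.03 and 9.34 in those of round 2 (1.88 ± 0.12, limma's standard error, adjusted p = 0.149). UCA1, a long non-coding RNA named for urothelial cancer, read 6.92 and 6.85 in round 1 and 8.13 and 8.03 in round 2. GCNT2, the enzyme that makes branched I antigen chains, read 5.87 and 5.90 in round 1 and 7.04 and 6.99 in round 2. In these genes the lines of a round differed far less from each other than the rounds did, and the rounds did not overlap.

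EVI2B, a transmembrane protein known from myeloid cells, lay at 5.15 and 5.34 in round 1, under the signal minimum, and at 6.66 and 6.71 in round 2. It entered the tested genes through the round 2 lines alone. MAB21L3 was at 8.07 and 7.71 in round 1 and at 9.15 and 8.91 in round 2. SLC16A4, a member of the monocarboxylate transporter family, differed by 0.92 in stomach and 0.91 in ovary. LINC01559, a long non-coding RNA, differed by 0.88 and 1.15, and ESAM, an adhesion molecule first described in endothelium, stood at 6.56 on both round 1 arrays and at 7.68 and 7.39 in round 2. ACTR6, an actin-related protein of a chromatin remodelling complex, differed by 0.88 and 0.95.

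In a further set the round 1 lines were already apart and the round 2 lines were close together. NXPE2 read 6.31 in the stomach line and 5.04 in the ovary line of round 1, and 7.68 and 8.02 in round 2. CD109, a membrane protein that binds TGF-beta, read 7.28 and 6.36 and then 8.76 and 8.57. DAPP1, a phosphoinositide-binding adaptor, read 6.62 and 6.09 in round 1 and was higher by 1.38 and 1.95 in round 2. KRT7, a keratin of simple epithelia, was at 8.68 in stomach and 7.73 in ovary in round 1, and at 9.68 and 9.89 in round 2. All of these had their lowest value in the ovary line of round 1, which carried the larger difference. SAMD9, an interferon-inducible antiviral factor, had the same order, at 8.32 and 7.08 in round 1 and 9.27 and 8.91 in round 2, as had the adhesion receptor ADGRF1 at 6.94 and 6.26 in round 1 and higher by 0.98 and 1.74 in round 2. DOCK11, an exchange factor for CDC42, had the opposite order, with 6.04 in stomach and 7.57 in ovary in round 1 and 8.12 and 8.50 in round 2.

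A few genes were highest in the ovary line of round 2 by a wide margin over the stomach line. ZFP42, a transcription factor known as a marker of pluripotent cells, read 4.59 and 5.05 in round 1 and 5.92 and 7.11 in round 2. Its round 1 values lay under the signal minimum. FBXL13, an F-box protein, went from 5.27 and 5.39, also under the minimum, to 6.22 and 6.68. ZFP42 and FBXL13 thus entered the tested genes through the round 2 lines alone.

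Among the 20 lowest genes were 3 transporters. SLC16A7, a transporter of pyruvate and lactate, stood at 8.48 and 8.54 in the stomach and ovary lines of round 1 and at 7.21 and 7.49 in those of round 2 (-1.16 ± 0.12, adjusted p = 0.287). SLC43A1, a transporter of leucine and other large neutral amino acids, read 9.09 and 9.35 and then 8.09 and 8.36. ABCC4, an efflux pump for organic anions, differed by -0.60 in stomach and -0.58 in ovary. SLC16A4 and SLC16A7, members of 1 transporter family, therefore stood in opposite directions. Over the whole list of amino acid and monocarboxylate carriers, 4 of 26 were non-overlapping above and 10 below. SLC1A2, a glutamate transporter, was among the latter at 11.96 and 12.35 in round 1 and 11.59 and 11.71 in round 2. The median of that list was -0.115, and it was 0.025 without the round 1 ovary array, -0.050 without the round 2 stomach array and -0.173 without the round 2 ovary array.

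A further 5 genes of the lower group were a semaphorin, a Notch ligand, a secreted ribonuclease, a zona pellucida glycoprotein and a receptor. SEMA6A, a transmembrane semaphorin, read 8.04 and 8.03 in round 1 and 7.17 and 6.73 in round 2. DLL3, a Notch ligand that acts within the cell, was at 7.31 and 7.32 and then at 6.62 on both arrays of round 2. RNASE1, a secreted ribonuclease, stood at 10.98 and 10.70 and then at 10.25 and 9.77. ZP3, a zona pellucida glycoprotein, was at 9.01 and 9.04 and then at 8.42 and 8.38. GPR63, an orphan receptor, differed by -0.80 in stomach and -0.70 in ovary. All 5 were non-overlapping.

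GRB10, an adaptor that binds the insulin receptor, read 7.31 and 8.39 in round 1 and 6.43 and 7.05 in round 2. GPRIN3 read 8.05 and 8.83 and then 6.62 and 7.71. For both genes the ovary line was the higher of each round. HIP1, a clathrin-binding protein, differed by -0.75 at each site, and its other probe set by -0.55 in stomach and -0.71 in ovary. RAB29, a small GTPase, differed by -0.79 and -0.74, PPIL6 by -0.72 and -0.78, SPATA17 by -0.75 and -0.64, FAM221A by -0.85 at each site and VWA5B1 by -0.75 and -1.17. Both round 2 values of FAM221A lay under the signal minimum, so it entered the tested genes through the round 1 lines alone. SNORA10, a small nucleolar RNA, stood at 9.59 and 9.57 in round 1 and at 8.97 and 8.74 in round 2. The rounds overlapped in RAB38, a GTPase of melanosome transport (6.57 and 7.46, then 5.92 and 6.64), and in TBL1X, a subunit of a corepressor complex (5.57 and 7.04, then 4.98 and 5.62), in both cases because the round 1 stomach line lay below the round 2 ovary line. TBL1X lay above the signal minimum only in the round 1 ovary line, and entered the tested genes through that line alone.

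**Figure D2:**
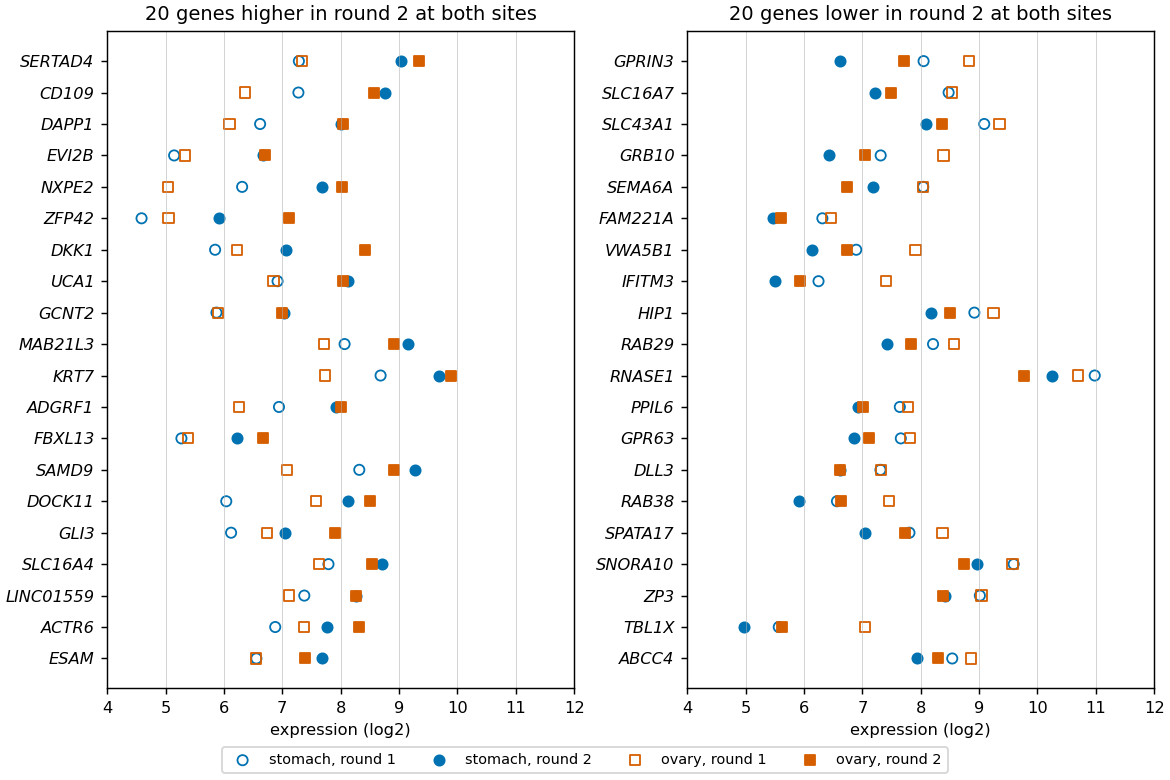
Expression (log2, x axis) on each of the 4 arrays for the 20 genes highest (left) and the 20 lowest (right) in round 2; circles are stomach lines, squares ovary lines, open symbols round 1 and filled symbols round 2. Filled symbols lie beyond open ones in 38 of the 40 genes, the exceptions being RAB38 and TBL1X.

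Antagonists and effectors of WNT and Hedgehog signalling, a pair of developmental pathways active in the gut, each included 1 ranked gene that was higher in round 2, DKK1 and GLI3, in a list with more members below than above. In WNT signalling secreted ligands stabilise beta-catenin, and DKK1 blocks their co-receptor. DKK1 stood at 5.85 in stomach and 6.22 in ovary in round 1, and at 7.06 and 8.41 in round 2 (1.70 ± 0.46, adjusted p = 0.287). The mean difference of DKK1 was 1.02 without the round 2 ovary array. Of the 24 WNT targets and antagonists tested, 2 were non-overlapping above (8.33%) and 9 below (37.5%). At their median level of 6.98, in the second of 5 groups of tested genes by rising level, 15.2% of genes were above and 34.7% below. The share below is thus near that of genes of like level. SP5, a transcription factor induced by beta-catenin, was below at 8.29 and 8.20 in round 1 and 7.96 and 7.75 in round 2, as were the secreted antagonist SFRP5 (-0.32 in stomach, -0.46 in ovary) and the intracellular antagonist NKD2 (-0.30 and -0.25). The list's median was -0.12 in stomach and -0.040 in ovary, against -0.017 and -0.0021 over all genes. Without the round 2 stomach array the median of the mean differences was -0.039 in place of -0.082.

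GLI3, a transcription factor of Hedgehog signalling that acts mainly as a repressor, read 6.12 and 6.73 in round 1 and 7.05 and 7.91 in round 2 (1.05 ± 0.35, adjusted p = 0.311). Its mean difference was 0.62 without the round 2 ovary array. Every other non-overlapping member of the Hedgehog list lay below: 8 of 11 (72.7%). GLI1, the pathway's activator and a standard readout of it, read 6.06 and 6.19 in round 1 and 5.74 and 5.77 in round 2 (-0.37 ± 0.08). Its round 2 values lay close to the signal minimum of 5.64. By level GLI1 falls in the lowest of the 5 groups, where 36% of genes were below and 8.66% above. GAS1 and BOC, co-receptors for the ligand, differed by -0.24 and -0.32 in stomach and -0.26 and -0.22 in ovary. The members' median level of 6.88 lay in the second of 5 groups of tested genes by rising level, where 34.7% of genes were non-overlapping below. Whether the level has a part in this count was not tested.

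In the Notch list, 3 of 16 genes lay above and 4 below. HEY1, a target of the pathway, read 6.76 and 6.43 in round 1 and 7.13 and 6.97 in round 2, while HES5, another target, differed by -0.39 in stomach and -0.24 in ovary, and the ligand DLL1 by -0.27 and -0.42. These counts are near the background of 22.2% and 26.8%.

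Genes of ribosome production were lower in round 2 as a list. Of 27 tested genes for ribosome biogenesis, 21 were lower at both sites and 1 was higher, and 13 were non-overlapping below (48.1%) against 1 above (3.7%). Their median stood at -0.25 in stomach and at -0.21 in ovary. None of the 27 was called by limma. RNA polymerase I transcribes the ribosomal RNA precursor, which is then cut and modified in the nucleolus. POLR1A and POLR1B, the catalytic subunits of that polymerase, read 9.39 and 9.64 (POLR1A) and 8.82 and 9.12 (POLR1B) in round 1, and 8.97 and 9.32 and 8.50 and 8.66 in round 2. UTP4, part of the complex that processes the precursor of the small subunit, had the largest of these differences, from 11.16 and 11.23 to 10.65 and 10.77 (-0.48 ± 0.08, adjusted p = 0.287). NOP2, a ribosomal RNA methyltransferase, differed by -0.34 in stomach and -0.35 in ovary, but its rounds overlapped. Leaving out the round 1 ovary array gave a list median of -0.107, and leaving out the round 2 stomach array -0.108, in place of -0.282.

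Ribosomal proteins, the structural parts of the ribosome, were lower by much smaller amounts. Of 31 tested, 15 were non-overlapping below (48.4%) and 2 above (6.45%), with a median of -0.026 in stomach and -0.089 in ovary. RPS14 read 12.35 and 12.19 in round 1 and 12.11 and 11.99 in round 2, and RPL18 13.07 and 13.03 and then 12.88 and 12.87. Ribosomal protein genes have many near-identical pseudogenes, so probe sets can read more than 1 locus. MYC, a transcription factor known to drive ribosome biogenesis genes and amplified in this line, was at 12.36 and 12.41 in round 1 and at 11.96 and 12.35 in round 2, a difference of -0.40 in stomach and -0.060 in ovary. Whether MYC has a part in the lower ribosome lists was not tested.

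Genes of mitosis stood in the other direction. Of 39 tested genes of mitosis and the kinetochore, 20 were non-overlapping above (51.3%) and 2 below (5.13%). Their median stood at 0.28 in stomach and at 0.0094 in ovary. The members with the largest difference at both sites were KIF11, the kinesin that separates spindle poles, CCNB1, which encodes cyclin B1, CENPE, a kinetochore motor, and SPC25, a part of the kinetochore's microtubule-binding complex. KIF11 read 9.07 and 9.16 in round 1 and 9.58 and 9.56 in round 2 (0.46 ± 0.07, adjusted p = 0.287). CCNB1 read 9.23 and 9.13 and then 9.56 and 9.46, and SPC25 7.53 and 7.33 and then 7.84 and 7.81. CENPE differed by 0.42 and 0.33. MKI67, which encodes the proliferation marker Ki-67, was at 10.68 and 10.75 and then at 10.91 and 10.88. Genes at these levels were non-overlapping above more often than others, 31.4% in the group of highest level. Without the round 1 stomach array the list median was 0.069, without the round 2 stomach array 0.096, and without the round 1 ovary array 0.242, in place of 0.160.

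Promoters of mitotic genes are known for the CCAAT box, bound by NF-Y, and for the element TTTGAA, through which cell cycle complexes act. Both were searched as plain letters on both strands in the 250 bases before the start of each gene in RefSeq's table (assembly GRCh38.p14), along with CACGTG, the E-box bound by MYC, and TATAAA, the letters of a TATA box. Of 34 mitotic genes with a promoter in the table, 73.5% held CCAAT and 50% held TTTGAA, against 34.3% and 8.66% of the promoters of all 11396 tested genes that matched, and 33% and 13.6% of all 27305 promoters. Among the 22 matched ribosome biogenesis genes, CACGTG was found in 9.09%, against 8.7% of tested genes and 6.49% of all promoters. The share with TATAAA was 27.8% in 18 immediate early genes, 14.3% in 14 of the 20 highest genes, 6.59% in tested genes and 11.1% in all promoters. A match is a string of letters and not a site shown to be bound.

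The promoters below are of leading members that the text describes, shown to place these letters, with capitals for any of the 4 motifs on either strand. KIF11 (chr10:92592880-92593129, plus strand) has a CCAAT box on the reverse strand, followed by TTTGAA on the same strand. CCNB1 (chr5:69166900-69167149, plus strand) has an E-box and, nearer the start, a pair of CCAAT boxes. SPC25 (chr2:168890431-168890680, minus strand) has TTTGAA at its far end and a pair of CCAAT boxes. CENPE has neither in its window. UTP4 (chr16:69132399-69132648, plus strand), from the ribosome biogenesis list, has an E-box near the start, and DKK1 (chr10:52314031-52314280, plus strand) a TATA box near the start and TTTGAA further up.
KIF11: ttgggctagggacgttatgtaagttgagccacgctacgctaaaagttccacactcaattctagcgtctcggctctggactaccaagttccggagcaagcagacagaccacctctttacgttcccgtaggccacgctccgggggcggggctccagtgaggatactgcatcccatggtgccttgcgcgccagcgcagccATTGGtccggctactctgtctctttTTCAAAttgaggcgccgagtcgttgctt
CCNB1: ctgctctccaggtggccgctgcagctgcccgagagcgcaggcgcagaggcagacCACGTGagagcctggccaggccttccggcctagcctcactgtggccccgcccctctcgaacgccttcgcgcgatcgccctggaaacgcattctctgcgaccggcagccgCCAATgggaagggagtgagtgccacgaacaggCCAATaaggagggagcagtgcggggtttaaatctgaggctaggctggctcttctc
SPC25: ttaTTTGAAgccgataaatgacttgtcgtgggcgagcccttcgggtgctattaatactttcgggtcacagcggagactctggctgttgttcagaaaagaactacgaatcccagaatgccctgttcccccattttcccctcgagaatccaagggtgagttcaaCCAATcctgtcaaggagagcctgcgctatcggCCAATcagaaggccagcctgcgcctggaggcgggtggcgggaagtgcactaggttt
UTP4: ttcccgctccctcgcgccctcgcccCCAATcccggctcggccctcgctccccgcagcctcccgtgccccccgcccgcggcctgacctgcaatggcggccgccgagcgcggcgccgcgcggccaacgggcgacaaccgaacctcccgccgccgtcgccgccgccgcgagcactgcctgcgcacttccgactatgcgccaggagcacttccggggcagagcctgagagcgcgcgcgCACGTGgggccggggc
DKK1: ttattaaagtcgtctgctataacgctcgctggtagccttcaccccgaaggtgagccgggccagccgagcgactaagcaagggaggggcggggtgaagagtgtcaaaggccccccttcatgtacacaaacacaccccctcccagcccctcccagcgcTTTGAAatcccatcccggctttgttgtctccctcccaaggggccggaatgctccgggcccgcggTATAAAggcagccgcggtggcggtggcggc

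**Figure D3:**
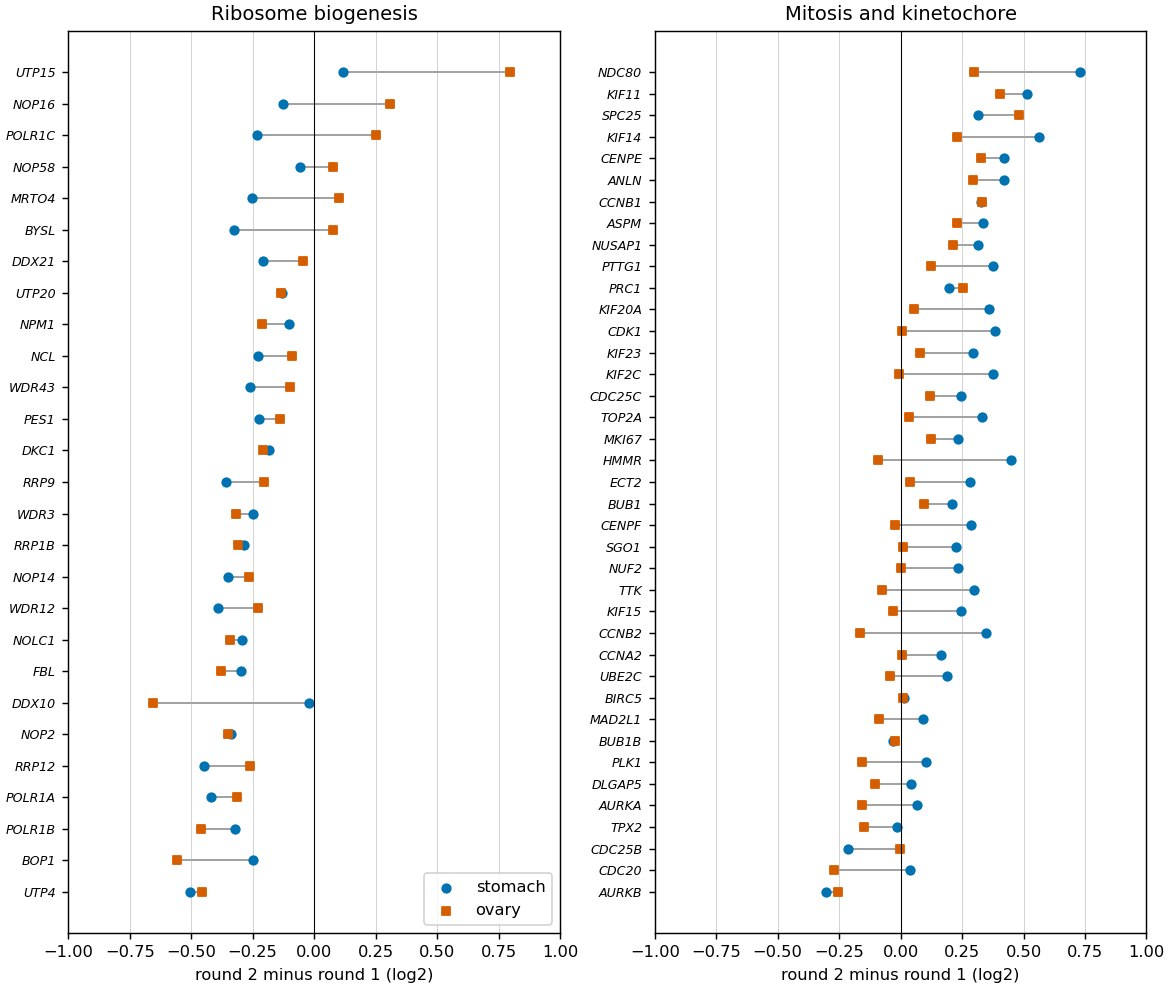
Round 2 minus round 1 (log2, x axis) in stomach (circles) and ovary (squares) for each tested gene of the ribosome biogenesis list (27 genes, left) and the mitosis and kinetochore list (39 genes, right), ordered by the mean difference. On the left 21 genes lie below 0 at both sites, while on the right 22 lie above 0 at both sites and 4 below.

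Genes of the G1 to S transition and DNA replication had 15 of 44 members non-overlapping above (34.1%) and 4 below (9.09%). Their median level of 8.99 lay in the fourth of the 5 level groups, where 32% of genes were above and 18.9% below. The share above is thus near that of genes of like level. CCNE2, which encodes cyclin E2, was furthest apart, at 7.43 in stomach and 7.02 in ovary in round 1 and at 8.12 and 8.32 in round 2 (0.99 ± 0.16, adjusted p = 0.287). CDC6, which loads the replicative helicase, read 8.51 and 8.73 and then 8.95 and 9.21, and the flap nuclease FEN1 differed by 0.26 and 0.43. CHAF1B, a chaperone that places histones on new DNA, was lower, at 8.89 and 8.91 in round 1 and 8.64 on both arrays of round 2. The list median of 0.077 was 0.025 without the round 2 ovary array and 0.125 without the round 2 stomach array.

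Metallothioneins, small cysteine-rich proteins that bind zinc and copper and are induced by metals, were lower in both lines of round 2. Of 10 tested, 8 were non-overlapping below (80%) and 0 above, with a median of -0.34 in stomach and -0.11 in ovary. MT1H read 7.14 and 7.03 in round 1 and 6.60 and 6.59 in round 2 (-0.49 ± 0.08, adjusted p = 0.287). MT2A read 10.42 and 10.39 and then 10.05 and 10.19, MT1E differed by -0.31 and -0.33, and MT1B by -0.22 and -0.12. These genes are close paralogs in a single cluster, and their probe sets may read each other's transcripts, so the 8 are not 8 independent observations.

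p53 targets and immediate early genes had larger differences in ovary than in stomach. Immediate early genes are induced within minutes by growth factors or by handling of cells. Of 25 tested, 13 were non-overlapping above (52%) and 1 below, with a median of 0.066 in stomach and 0.52 in ovary. FOS was an exception to that order, at 9.32 and 8.95 in round 1 and 10.19 and 9.67 in round 2, differences of 0.87 and 0.72. NR4A2, an orphan nuclear receptor, differed by 0.27 and 1.22, and MCL1, an inhibitor of apoptosis, by 0.20 and 0.41. The median level of the immediate early list lay in the fourth level group, where 32% of genes were above and 18.9% below. Among 25 p53 targets, 10 lay above (40%) and 1 below, with medians of 0.078 in stomach and 0.53 in ovary. TP53INP1, a stress-induced partner of p53, read 6.22 and 5.86 and then 6.81 and 7.76, and POLH, a translesion polymerase, 9.39 and 9.41 and then 9.92 and 9.97, the latter with nearly the same difference at both sites. SESN1 differed by 0.35 and 0.99. Without the round 2 ovary array the immediate early median was 0.106 in place of 0.286 and the p53 median 0.041 in place of 0.284. Without the round 2 stomach array they were 0.526 and 0.544, and without the round 1 stomach array the p53 median was 0.183.

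Regulators of apoptosis included members of both signs of action. Of 25 tested, 12 were non-overlapping above (48%) and 3 below (12%), though the medians were only 0.045 in stomach and 0.14 in ovary. APAF1, the core of the apoptosome, read 8.72 and 8.47 in round 1 and 9.16 and 8.81 in round 2. The death effector BAK1 differed by 0.33 and 0.36 and BIK by 0.39 and 0.30, while XIAP, which inhibits caspases, differed by 0.25 at each site.

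Feedback genes of the MAPK pathway, which growth factor receptors such as FGFR2 activate, lay above in 8 of 19 (42.1%) and below in 1. All tested genes of the fourth level group, which holds the list's median level, were above in 32% and below in 18.9%. EPHA2, a receptor kinase, read 8.21 and 8.40 in round 1 and 8.62 and 8.96 in round 2. PHLDA1 differed by 0.47 and 0.31, and DUSP6, a phosphatase that inactivates ERK, by 0.24 and 0.34. FGFR2 itself, amplified in this line, read 12.94 and 12.90 in round 1 and 12.93 and 12.94 in round 2, and its rounds overlapped. CD44, also amplified, differed by -0.092 and -0.093. Without the round 1 ovary array the MAPK median was 0.194, without the round 1 stomach array 0.072 and without the round 2 ovary array 0.062, in place of 0.108.

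Genes of epithelial junctions were higher in round 2 in most members. Of 33 tested, 18 were non-overlapping above (54.5%) and 3 below (9.09%), with medians of 0.093 in stomach and 0.16 in ovary. In the highest level group, which holds the list's median level, 31.4% of genes were above and 18.9% below. ST14, a membrane protease of epithelia, read 10.37 and 10.25 in round 1 and 10.84 and 10.65 in round 2 (0.44 ± 0.10, adjusted p = 0.287). The desmosomal cadherin DSC2 read 9.65 and 9.51 and then 10.03 and 10.10, and CDH17, an intestinal cadherin, 11.21 and 10.73 and then 11.46 and 11.30. CDH1, which encodes E-cadherin, was at 11.53 and 11.50 and then at 11.63 on both arrays of round 2. CLDN15, a claudin that forms cation pores, went the other way, from 8.48 and 8.09 to 7.87 and 7.81. Keratins were mixed, with 4 of 13 above and 2 below: KRT80 differed by 0.22 and 0.42 and the basal keratin KRT14 by -0.57 and -0.38.

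Integrins, the receptors for extracellular matrix, and laminins had 9 of 21 members above (42.9%) and 4 below. ITGB6 read 8.31 and 8.18 in round 1 and 8.84 and 8.66 in round 2, and ITGA2, a collagen receptor subunit, 9.84 and 9.64 and then 10.31 and 10.16. ITGA3, a laminin receptor subunit, differed by 0.62 and 0.44. Proteases and inhibitors outside cells lay above in 11 of 32 (34.4%) and below in 3, among them the metalloproteinase inhibitor TIMP2 (7.89 and 7.45, then 8.58 and 8.25), the cathepsin CTSL (0.43 and 0.62) and the serpin SERPINB5 (0.60 and 0.41). The median of the integrin list was 0.055 without the round 1 ovary array and 0.184 without the round 1 stomach array, in place of 0.104. For the protease list these were 0.010 and 0.262, in place of 0.143.

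CEACAM genes, a family of surface glycoproteins that includes the tumour marker CEA, had 4 of 7 tested members above and 2 below, with medians of 0.10 in stomach and 0.15 in ovary. CEACAM1, CEACAM5 and CEACAM6 differed more in ovary than in stomach. CEACAM19 (-0.37 in stomach, -0.040 in ovary) and CEACAM4 (-0.19 and -0.029), which lay below, differed more in stomach and were chosen after their values were seen. CEACAM5, which encodes CEA, read 10.95 in stomach and 9.70 in ovary in round 1, and 11.34 and 11.30 in round 2. CEACAM6 read 11.05 and 10.45 and then 11.49 and 11.42, and CEACAM1 8.25 and 7.38 and then 8.92 and 8.66. As in KRT7 and SAMD9, the ovary line of round 1 was the lowest of the 4 and the round 2 lines were close together. Without it the mean difference of CEACAM5 was 0.36 (and 1.61 without the round 1 stomach line) in place of 0.99, that of CEACAM6 0.41 in place of 0.71 and that of CEACAM1 0.54 in place of 0.98.

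Interferon response genes, with 11 of 26 above (42.3%) and 5 below (19.2%), held members in both directions. SAMD9L, the neighbour and paralog of SAMD9, read 9.06 and 7.62 in round 1 and 9.85 and 9.45 in round 2, and the guanylate-binding protein GBP2 7.27 and 6.24 and then 7.75 and 7.74. IFI30, a lysosomal thiol reductase, was lower, at 10.71 and 10.81 and then at 10.22 and 10.05. The IFITM family, which includes membrane proteins that hinder virus entry, had 4 genes tested, 3 non-overlapping below. IFITM3 read 6.25 in stomach and 7.41 in ovary in round 1 and 5.50 and 5.93 in round 2, IFITM1 8.10 and 8.38 and then 7.66 and 7.65, and IFITM5 6.15 and 5.79 and then 5.74 and 5.67. The round 2 stomach value of IFITM3 lay under the signal minimum. IFITM1 and IFITM3 are close paralogs and neighbours, and their probe sets may share transcripts. Without the round 1 ovary array the interferon median was 0.027, without the round 1 stomach array 0.164 and without the round 2 ovary array 0.178, in place of 0.101, and that of IFITM3 was -0.54 without the round 1 ovary array and -1.69 without the round 1 stomach array, in place of -1.11.

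Of 20 cholesterol synthesis genes, 9 lay above (45%) and 1 below (5%), with medians of 0.071 in stomach and 0.15 in ovary. Genes of the highest level group, which holds the median level of these 20, were above in 31.4% and below in 18.9%. STARD4, a sterol carrier, read 8.78 and 8.80 and then 9.33 and 9.15, and the isomerase IDI1 differed by 0.17 and 0.29, while the decarboxylase MVD differed by -0.18 and -0.28. Of 32 genes of glycolysis and hypoxia, 11 lay above (34.4%) and 5 below (15.6%). Their median level lay in the highest of the 5 level groups, where 31.4% of genes were above and 18.9% below. The list was led by EGLN3, an oxygen sensor (0.41 and 0.44), and VEGFA (0.44 and 0.33). ABCG2, an efflux pump in the list of NRF2 targets and xenobiotic metabolism, read 8.48 and 8.52 and then 7.80 and 8.03, and that list had 8 of 26 above and 10 below. Oxidative phosphorylation had 9 of 32 above and 10 below.

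**Figure D4:**
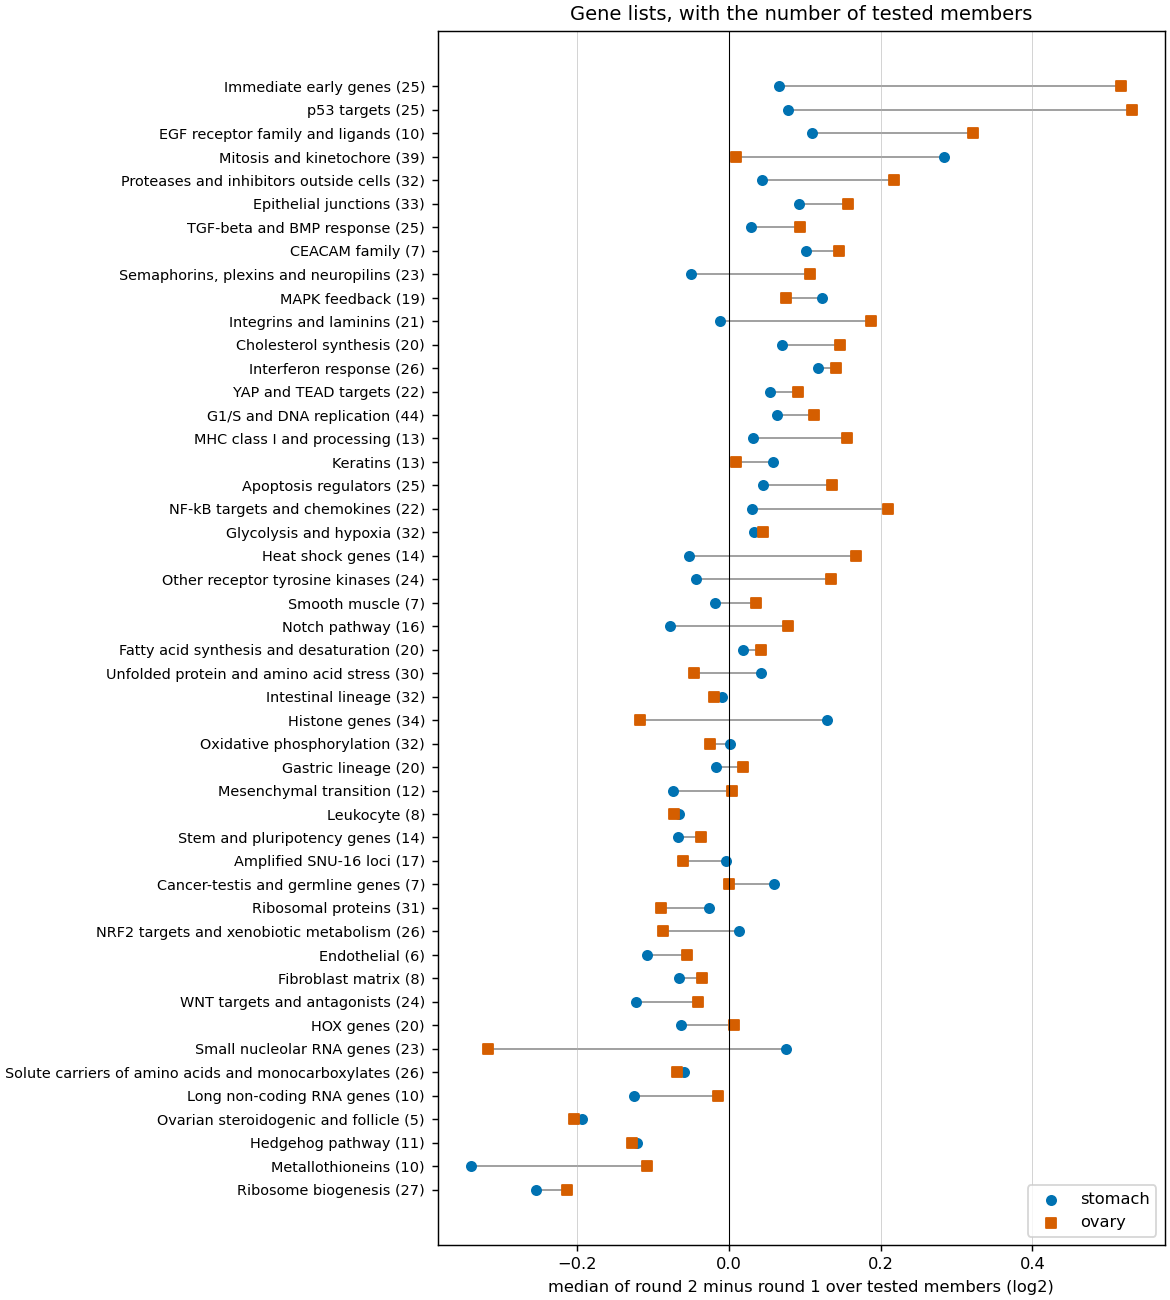
Median round 2 minus round 1 (log2, x axis) over the tested members of the 48 lists with at least 5 of them, in stomach (circles) and ovary (squares). Medians lie above 0 at both sites in 19 lists and below 0 at both sites in 14; ribosome biogenesis (-0.25 and -0.21) is the lowest of the latter by mean difference, and the immediate early and p53 lists reach 0.52 and 0.53 in ovary alone.

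Markers of other cells that a recovered tumour could hold were near the signal minimum. On each array the mean level of the fibroblast, leukocyte, endothelial, ovarian, mesothelial, smooth muscle and red blood cell lists lay between 5.51 and 6.20, beside a signal minimum of 5.64. Under that minimum lay PTPRC (leukocytes), PECAM1 (endothelium), DCN and LUM (fibroblasts), CYP11A1 (steroidogenic ovary) and HBB (red blood cells). Probe sets are for human transcripts, and the host cells are of the mouse. Of the markers above the minimum, 5 of 8 fibroblast genes were non-overlapping below, 2 of 8 leukocyte, 3 of 6 endothelial and 3 of 5 ovarian genes, and above lay 1, 0, 1 and 1. The median level of the ovarian list lay in the second of the 5 level groups, where 34.7% of all genes were below, and those of the other 3 lists in the lowest, where 36% were. Among those below were PDGFRB at -0.28 and -0.52, TIE1 at -0.19 and -0.75 and FOXL2 at -0.34 and -0.26. ESAM and ZP3, ranked above, are the members of the endothelial and ovarian lists furthest apart. With human probe sets and a mouse host, these levels cannot serve as a count of cells of these types.

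The direction of the difference followed the level of a gene and its length. In the 5 groups of tested genes of rising mean level, 8.66%, 15.2%, 23.7%, 32% and 31.4% were non-overlapping above, and 36%, 34.7%, 25.5%, 18.9% and 18.9% below. In the 5 groups of rising gene length, 12.2% of the shortest genes and 30.6% of the longest lay above, and 37.5% and 20% below. The median difference moved from -0.086 in stomach and -0.047 in ovary at the lowest level to 0.037 and 0.031 at the highest. By chromosome, 38.2% of genes on chromosome 22, 35.6% on chromosome 16 and 34.5% on chromosome 19 were below, while chromosome 18 had 37.9% above. The part of level and length in the list counts was not tested. With a level-dependent scaling of the arrays (cyclic loess), 19 of the 20 highest and 19 of the 20 lowest genes were again among the 20 of their direction.

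**Figure D5:**
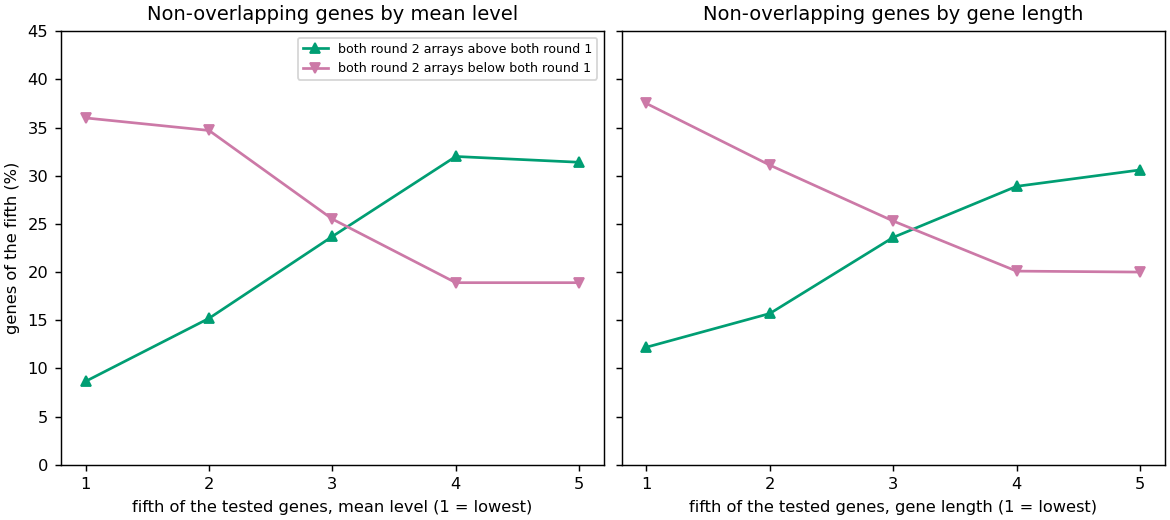
Share of tested genes (%, y axis) whose 2 round 2 arrays lay above (upward triangles) or below (downward triangles) both round 1 arrays, in 5 equal groups by mean level (left) and by gene length (right). The share above goes from 8.66% to 31.4% with level and from 12.2% to 30.6% with length, while the share below goes from 36% to 18.9% and from 37.5% to 20%.

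In some chromosomal stretches, neighbouring genes differed in the same direction. Medians were taken over each run of 15 tested neighbours in RefSeq's gene order, and the stretches and genes of this paragraph were chosen after their values were seen, so they are a description. The stretch highest at both sites lay on chromosome 19 from ZNF432 to ZNF816, with medians of 0.26 in stomach and 0.26 in ovary. It holds 14 zinc finger genes, and 11 of the 15 genes were non-overlapping above and 0 below. ZNF841 read 7.83 and 7.36 in round 1 and 8.16 and 8.34 in round 2, ZNF808 8.69 and 8.58 and then 8.99 and 9.17, and ZNF320 7.39 and 6.83 and then 7.77 and 7.65. Of all 182 tested chromosome 19 genes named ZNF and a number, 30.2% lay above and 14.8% below, where chromosome 19 as a whole had 13.6% above and 34.5% below. Of the 219 such genes on other chromosomes 18.7% lay above and 20.1% below. These genes are close paralogs, and probe sets may read more than 1 of them.

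The other stretches highest at both sites ran from C2orf69 to CASP10 on chromosome 2 (0.23 and 0.24), with the kinase CLK1 at 8.19 and 8.17 in round 1 and 8.67 and 8.69 in round 2, and from TMTC3 to FGD6 on chromosome 12 (0.23 and 0.31), which includes DUSP6. Lowest at both sites was a stretch of chromosome 16 from C16orf95 to MVD (-0.25 and -0.27), in which 10 of 15 genes were non-overlapping below and 0 above. ZCCHC14 read 8.36 and 8.72 there in round 1 and 8.09 and 8.17 in round 2. Chromosome 16 as a whole had 35.6% of genes below and 14.5% above. On chromosome 11 the stretch from BET1L to LRRC56 (-0.30 and -0.20) holds IFITM1, IFITM3 and IFITM5, and 11 of its 15 genes lay below. The deacetylase SIRT3, which lies in it outside the IFITM family, read 8.71 and 8.83 and then 8.37 and 8.30. A further stretch of chromosome 11, from CD248 to CCS (-0.21 and -0.24), had 8 of 15 below.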

How the data were processed

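RNA of the 4 lines was biotin-labelled with an Affymetrix kit, per the labels' protocols. A single table of log2 values was deposited by the authors, and the submitters' processing notes name Affymetrix Expression Console. No source used here gives the normalization or the genome build. The scale was read from the values (2.25 to 14.2, array medians 6.80 to 6.84). A shift shared by all transcripts cannot be seen if the authors equalised the arrays.

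Probe sets were named through GEO's platform annotation: of 33297 rows, 19460 carry 1 gene symbol, 1754 several and 12083 none here. Symbols were updated through a RefSeq table of assembly GRCh38.p14, which held 19429 of the single-gene rows. The probe set with the highest mean represented each of 18417 genes (769 have over 1), and 3870 with a mean under the 30th percentile of all rows were left out.

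Samples were grouped by the round in their titles. Round 2 minus round 1 was tested two-sided by limma 3.58.1 (R 4.3.3) with eBayes and 2 residual degrees of freedom, and p-values were adjusted over 14547 genes by the Benjamini-Hochberg method. The number of arrays limits the precision. The pairing by site comes from the labels, which derive each round 2 line from the round 1 line of that site; deviations of same-lineage arrays from the round means correlated at 0.101 across genes. Within-site differences are between single arrays and have no p-value. The limma step was run on simulated data with independent errors and no effect of site or lineage. The only requirement was that the mean estimate lay near the simulated difference. That run therefore does not show how limma performs on these arrays.

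The members and the 51 gene lists were chosen with earlier results of these data known, so lists are given by counts and medians. Named were the 20 highest and 20 lowest genes by the smaller of both within-site differences of equal sign. Up to 4 members per list by the same measure and genes of a fixed panel of 10 were also named. Others are said to be chosen after their values were seen. Over the whole panel, 6 of 10 genes were non-overlapping. EPCAM, ERBB2 and MET of the panel, whose rounds overlapped, and VIM, with a mean under the signal minimum, were not described. Alternatives were other signal minimums, scalings, probe set choices, limma priors, fold thresholds, the site as a block, a crossed pairing of sites and leaving out each array; cyclic loess was added after seeing the data. Figures were drawn with matplotlib 3.10.9.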

Additional observations from a re-analysis of the deposited data

Results flagged for a closer look

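A signal appeared in rows that the comparisons did not use, since they carry no gene name. The first block of unnamed rows, with probe set IDs from 7892501 to 7896738, holds 4203 rows, of which 3075 had a mean above the signal minimum. Of these, 25 were at least 2-fold higher in round 2 at both sites and 1 was lower, where the 14547 named genes had 10 and 2. Both round 2 arrays lay above both round 1 arrays in 34% of these rows and below them in 14.8%, with a median difference of 0.11 in stomach and 0.076 in ovary. The rows were also more variable, with an SD over rows of 0.43 in stomach against 0.23 for named single-gene rows, and 0.42 in ovary against 0.27. The row furthest apart, 7896299, read 5.85 and 4.73 in the stomach and ovary lines of round 1 and 7.97 and 6.44 in those of round 2. No source used here says what these probe sets measure, or whether they are array controls, so they cannot be taken for transcripts. In the other rows without 1 gene symbol, 2 were at least 2-fold higher and 1 was lower at both sites, among 4866 above the minimum.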

How the results depend on the processing

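With 2 arrays per round, no gene was called between rounds by limma under any alternative run, the site as a replicate block included (0 called, 2358 genes at an unadjusted p under 0.05 against 2178). The interaction of site and round had 0 calls as planned, without a signal minimum and with a trended prior. The error of these interaction fits holds the round and site differences. Genes at least 2-fold higher at both sites numbered 10, and 6 with a minimum at the 50th percentile, 59 at 1.5-fold and 1 at 3-fold. Those at least 2-fold lower numbered 2, and 19 at 1.5-fold, 0 at 3-fold and 1 with the sites of round 2 crossed. Those in opposite directions numbered 1, and 0 with arrays centred on medians, 0 with cyclic loess, 14 at 1.5-fold, 0 at 3-fold and 2 with the sites crossed. Counts that need both sites could not be made without an array. Of the non-overlapping genes, 45.3% lay above as deposited, 40.5% after quantile normalization, 50.4% after cyclic loess, 53.2% with a minimum at the 50th percentile and 56.4% with centred arrays. A further probe set above the minimum had a mean difference of the same sign in 488 of 598 genes. Of 1676 values of the 121 genes described, 1 reversed its direction, that of FGFR2, which ran from -0.002 without the round 1 ovary array to 0.038 without the round 1 stomach array. Most of these genes were named for differences of equal sign on the same arrays, so few could reverse. Other limma priors and the site as a block leave the mean difference unchanged. The count is therefore no measure of how well the directions would repeat. The median of the round 1 mean level was 6.70 over the 20 highest genes and 8.06 over the 20 lowest, and 4 and 3 of them had an array under the signal minimum.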

Other observations

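Further gene groups are described by how many tested members had both round 2 arrays above or both below both round 1 arrays. The background over all genes was 22.2% above and 26.8% below, and the shares of these groups fell on either side of it. Targets of YAP and TEAD, which read cell tension and density, lay above in 9 of 22 (40.9%) and below in 3 (13.6%). F3, tissue factor, read 8.23 and 7.97 in the stomach and ovary lines of round 1 and 8.60 and 8.99 in those of round 2, while TEAD4, a transcription factor of the pathway, read 8.40 and 8.72 and then 8.08 and 8.20. Semaphorins, plexins and neuropilins lay above in 9 of 23 (39.1%) and below in 5 (21.7%), with SEMA4B at 0.39 in stomach and 0.41 in ovary against SEMA6A. NF-kB targets had 7 of 22 above and 4 below, TGF-beta and BMP genes 6 of 25 and 3, receptor tyrosine kinases other than the EGF receptor family 6 of 24 and 4, and the EGF receptor family with its ligands 2 of 10 and 1. MHC class I genes had 3 of 13 above and 1 below.

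Stress and lineage lists were split. Heat shock genes had 4 of 14 above and 1 below, unfolded protein and amino acid stress genes 8 of 30 and 2, and histone genes 8 of 34 and 5. H3C7 read 11.88 and 12.15 and then 11.53 and 11.72, whereas H2BC21 read 9.23 and 9.18 and then 9.62 and 9.64. Gastric lineage genes had 3 of 20 above and 7 below, intestinal ones 5 of 32 and 8, with the intestinal factor CDX2 at 8.69 and 8.53 and then 8.48 and 8.50. HOX genes had 4 of 20 each way, stem and pluripotency genes 2 of 14 and 5, mesenchymal genes 1 of 12 and 2, cancer-testis genes 0 of 7 each way, long non-coding RNA genes 2 of 10 and 4, fatty acid genes 5 of 20 and 3, and genes at loci amplified in SNU-16 4 of 17 and 6. Small nucleolar RNA genes had 0 of 23 above and 3 below, with a median of 0.075 in stomach and -0.32 in ovary. Smooth muscle markers had 1 of 7 each way, mesothelial markers 0 of 4 and 1, and the 1 red blood cell gene tested lay below.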
